A study of Drosophila melanogaster with 4 samples.

Results

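The interior of chromosome arm 3R of Drosophila melanogaster carried 4573 of the 21932 regions called as enriched for the protein Su(var)3-9 in the combined list of a ChIP-seq experiment on larvae of the third instar. The interior is the arm without the 2 Mb next to the centromere (its base) and without the last 1 Mb at the telomere (its tip). It was taken as every enriched region on 3R whose midpoint lay from 2000001 to 26905053 on FlyBase release 5, a span of 24.9 Mb. The same limits applied to the lists of the separate ChIP libraries gave 1081 of 6699 regions in replicate 1 and 1863 of 10048 in replicate 2. Depleted regions did not enter, and the combined list named 0 of them on 3R.

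Su(var)3-9 is a histone methyltransferase that places methyl groups on lysine 9 of histone H3. The mark is bound by heterochromatin protein HP1, which in turn recruits Su(var)3-9, so that the modification can spread along silent chromatin. The gene was found through mutations that suppress position-effect variegation, the patchy silencing of genes placed next to heterochromatin. The protein is best known at the repeat-rich chromatin around centromeres, and it has also been mapped to sites within the gene-rich arms, of which 3R is one. The gene Su(var)3-9 itself lies on 3R.

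All libraries came from wild-type larvae of the Oregon-R strain, and the study holds 2 ChIP libraries and 2 input libraries. The ChIP used the rabbit antibody Q2598, affinity-purified and raised against residues 320 to 419 of Su(var)3-9. Whole larvae mix many tissues, so more cells carrying the protein at a site and more protein per cell cannot be told apart. The labels do not tell whether the replicates are separate batches of animals, and the spread between these libraries may be technical. The values are positions and the authors' enrichment score per region. The lists hold no read counts, so depth is unknown, and no input list was compared.

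The label of the interior as euchromatic was checked against coverage, because the lists hold no chromatin marks. In replicate 1 the regions covered 7.75% of the interior, and in replicate 2 they covered 13.7%, a mean of 10.7% ± 4.24 (SD, n = 2). On the pericentric sequence 3RHet the regions of replicate 1 covered 40.4% and those of replicate 2 covered 33.7%. The interior therefore lay below 3RHet in both lists. The parts of 3R cut off by the rule were covered much like the interior. The base had 8.44% in replicate 1 and 13.7% in replicate 2, and the tip had 8.41% and 14.0%. Coverage thus set the interior apart from 3RHet but not from these flanks. Among the 249 complete windows of 100 kb in the interior, the highest coverage was 20.8% in replicate 1, 38.5% in replicate 2 and 62.6% in the combined list. Windows at 25% or more numbered 0 in replicate 1, 17 in replicate 2 and 184 in the combined list. The highest window thus exceeded 3RHet as a whole in replicate 2 and in the combined list, where 3RHet was covered at 51.9%, but not in replicate 1. The median score in replicate 1 was 0.592 on the interior and 1.22 on 3RHet. In replicate 2 these medians were 0.515 and 0.929.

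The regions were short and their lengths hardly differed between the replicates. The median was 1651 bp in replicate 1 and 1627 bp in replicate 2, with the middle 50% from 1440 to 1959 bp and from 1424 to 1983 bp. The longest region measured 10487 bp in replicate 1 and 9758 bp in replicate 2. In the combined list the median was 1506 bp and the longest member 10630 bp. Of the 4573 members, 62 had the minimum length of 1001 bp, which is below the minimum of 1301 bp found in either replicate list. Only 41 members, or 0.897%, reached 5 kb. The lists thus describe many narrow calls spread through the arm and few broad ones.

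Replicate 2 held 1.72 times as many regions per Mb of the interior as replicate 1, at 74.8 against 43.4. The combined list held 184 per Mb and covered 32.1% of the interior. Gaps between neighbouring members of the combined list had a median of 2139 bp, and 29.5% of them were under 1 kb. In replicate 1 the median gap was 13640 bp and in replicate 2 it was 6585 bp. Members less than 2 kb apart formed 2371 chains, of which 1298 were lone members and 148 held 5 or more.

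The interior of 3R was compared with the interiors of 2L, 3L and X, limited at the same distances from base and tip. The question was whether 3R carries more called bases than arms of the same kind. In replicate 1 the covered share was 7.75% on 3R, 6.14% on 2L, 6.61% on 3L and 5.93% on X. In replicate 2 it was 13.7% on 3R, 11.1% on 2L, 11.9% on 3L and 12.6% on X. So 3R was above each of these 3 arms in both libraries. The excess over their mean was 1.52 percentage points in replicate 1 and 1.87 in replicate 2, a mean of 1.70 ± 0.248 (SD, n = 2). An exact two-sided sign-flip permutation over the replicates gave p = 0.5, which is the smallest p that 2 replicates allow, so the difference cannot pass a threshold in this design. The arm 2R, added to the comparison after the data were seen, was above 3R in both lists, at 8.00% and 16.6%. With 2R in the mean of the other arms, the excess of 3R was 0.887 ± 0.271 percentage points (SD, n = 2).

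The excess lay in the number of regions rather than in their length or score. In the combined list 3R held 184 regions per Mb, against 147 on 2L, 154 on 3L and 143 on X. Median length was 1506 bp on 3R, 1486 bp on 2L, 1476 bp on 3L and 1536 bp on X. The median score of the combined list was 0.376 on 3R, 0.377 on 2L and 0.375 on 3L. On X it was higher, at 0.443. In the replicates the median of 3R minus that of X was −0.102 and −0.0995, with an SD of 0.00184 (n = 2). The scores of 3R thus lay level with those of 2L and 3L and below those of X. A score limit over the whole list therefore keeps more of X. The top 50% of replicate 1 by score kept 22.0% of its regions on the 3R interior, 23.8% on 2L, 25.1% on 3L and 53.5% on X. Under that limit in both lists, the covered share of 3R minus the mean of the 3 arms changed sign, to −0.702 percentage points.

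**Figure D1:**
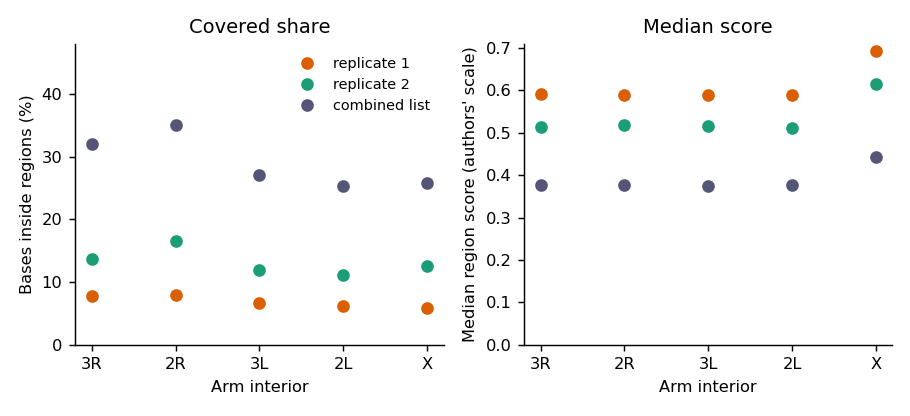
Covered share (left, percent of bases inside regions) and median region score (right, the authors' scale) of 5 arm interiors in each of the 3 lists, 1 point per list. In coverage 3R lies above 3L, 2L and X and below 2R in every list, while its median score lies level with 2R, 3L and 2L and below X.

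Coverage was not even along the interior. In windows of 1 Mb the replicate 1 values ran from 5.31% to 11.2%. Those of replicate 2 ran from 7.62% to 22.0%, and those of the combined list from 21.2% to 43.8%. The highest window of replicate 1 and of the combined list was 25000001 to 26000000, and that of replicate 2 was 23000001 to 24000000. The window 10000001 to 11000000 was the lowest in replicate 2 and in the combined list and the second lowest in replicate 1, at 5.38%. Across the 25 windows, of which the last is 905053 bp long, the covered shares of the replicates had a Spearman's rho of 0.80 and a Pearson's r of 0.78. Across 249 windows of 100 kb these were 0.54 and 0.52. The windows share the same 2 libraries and neighbouring windows are not independent, so both are descriptions.

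**Figure D2:**
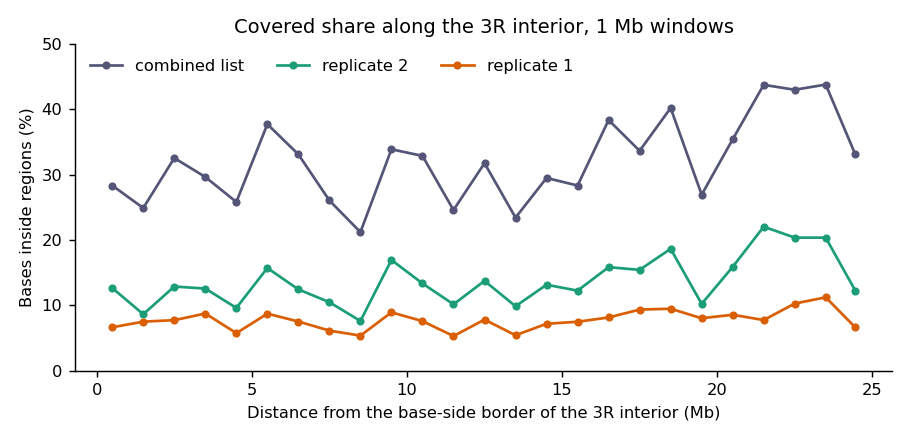
Percent of bases inside regions in 25 windows of 1 Mb (the last one shorter), plotted by distance in Mb from the base-side border of the 3R interior. The lines are the combined list, replicate 2 and replicate 1. All 3 are low about 8.5 Mb from the border, where the combined list is at 21.2%, and high about 23.5 Mb from it; about 21.5 Mb from it replicate 2 is at its highest, 22.0%, and replicate 1 is at 7.76%.

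The side of the interior toward the tip was covered more than the side toward the base. Split at position 14452527, the base side was covered at 7.13% and the tip side at 8.36% in replicate 1. In replicate 2 the values were 12.0% and 15.5%, and in the combined list 29.2% and 35.0%. The difference was 1.23 percentage points in replicate 1 and 3.49 in replicate 2, a mean of 2.36 ± 1.60 (SD, n = 2). The exact permutation by sign flips, two-sided, gave p = 0.5, again the smallest possible. The mean difference exceeded its SD over the replicates, and both libraries showed its direction. Regions per Mb numbered 39.7 on the base side and 47.1 on the tip side in replicate 1. The same counts for replicate 2 were 66.3 and 83.4. Median scores differed little, at 0.585 against 0.599 in replicate 1 and 0.504 against 0.523 in replicate 2. Outside the interior, the 2 Mb at the base were covered at 8.44% in replicate 1, 13.7% in replicate 2 and 30.1% in the combined list. In each list this was above the base side of the interior, so the higher coverage toward the tip describes the interior only.

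In 5 blocks of equal length from base to tip, mean coverage of the replicates was 9.27% ± 2.82, 9.97% ± 3.78, 9.43% ± 3.84, 11.6% ± 4.29 and 13.5% ± 6.46 (SD, n = 2 each). The last 2 blocks, from 16943032 onward, had the highest means. In replicate 2 the step from the fourth to the fifth block was from 14.6% to 18.0%, and in replicate 1 it was from 8.56% to 8.89%. The 5 windows of 100 kb with the highest combined coverage all lay between 22400001 and 24400000, at 56.7% to 62.6%. In the highest, 23500001 to 23600000, replicate 1 had 4 regions covering 6.81% and replicate 2 had 17 regions covering 34.1%. In each of the 5 windows replicate 2 had the higher coverage, and the part of that library in the excess was not tested.

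Some stretches of the interior held no member. The longest ran from 9819960 to 9882407 (62448 bp) and held 0 regions in each of the 3 lists. The next was 4689053 to 4734039 (44987 bp), also empty in each list. The third, 4926545 to 4968471 (41927 bp), touched 1 region of replicate 1, with a score of 0.506, and 0 of replicate 2. Those at 3448782 to 3489242 (40461 bp) and 21966183 to 22005166 (38984 bp) were empty in each list. The first of them lies in the window 9800001 to 9900000, which had the lowest combined coverage of the 249, at 5.15%. Whether reads could be placed in these stretches is not recorded in the lists.

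The replicate lists were then compared to see which calls were made in both libraries. In replicate 1, 484 of the 1081 regions overlapped a replicate 2 region by at least 1 bp, a share of 44.8% (95% Wilson interval 41.8 to 47.8), where the share over the whole list was 53.5%. In replicate 2, 501 of 1863 did so, a share of 26.9% (24.9 to 29.0), where the whole list had 37.5%. These intervals cover counting error only, and neighbouring regions are not independent. Both shares were below the background of their list, which also holds heterochromatin such as 3RHet, with 76.0% in replicate 1 and 87.4% in replicate 2. They lay close to the shares of the other arm interiors. In replicate 1 those were 43.8% on 2L, 43.2% on 3L, 44.1% on X and 46.7% on 2R. In replicate 2 they were 25.4%, 26.0%, 22.5% and 24.0% in the same order. Most calls in either library on the 3R interior had no counterpart in the other. When at least 50% of both regions had to overlap, 345 regions of each list kept a partner, or 31.9% and 18.5%. The shares over the whole lists under this stricter rule were not computed, so these 2 values have no background beside them.

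The distance from each call without a partner to the nearest call of the other list was measured. Of 597 lone regions in replicate 1, 110 lay within 1 kb of a replicate 2 region and 346, or 58.0%, lay within 5 kb, with a median distance of 3962 bp. Of 1362 lone regions in replicate 2, 144 lay within 1 kb of a replicate 1 region and 541, or 39.7%, within 5 kb, with a median of 6981 bp. The density of the list searched sets these distances at least in part, since replicate 2 has the more regions. How near lone regions would lie from density alone was not computed. Regions with a partner were longer, at a median of 1804 bp in each list against 1559 and 1587 bp for lone ones. Their median score was higher by 0.0500 in replicate 1, at 0.619 against 0.569, and by 0.00164 in replicate 2, at 0.516 against 0.514. No test was made on regions, which are not replicates.

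In bases, the lists shared 511 stretches summing to 701 kb, out of 4658 kb in either list, a Jaccard index of 0.150. Without the part of the last stretch beyond the tip border, the shared bases made up 2.80% of the interior. A shared stretch had a median length of 1387 bp, 389 of them reached 1 kb and 10 reached 3 kb. Those 10 are given here in full, since they are the broadest places on the arm that both libraries named.

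The longest shared stretch was 9758 bp, from 8327571 to 8337328. Its score was 1.53 in replicate 1, 1.34 in replicate 2 and 1.35 in the combined list. Its ends matched closely between the lists, at 8327371 to 8337335 in replicate 1 and 8327333 to 8337364 in the combined list. A second shared stretch lay close by at 8290872 to 8294162 (3291 bp), with scores of 1.49, 1.13 and 1.20 in replicate 1, replicate 2 and the combined list. The window 8300001 to 8400000, which holds the longer one, had the most shared bases of all 249, at 11.2%.

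A second such site lay near 7.78 Mb. Replicate 1 named a single region from 7779457 to 7789943 (10487 bp, score 1.45), its longest on the interior. Replicate 2 broke it into 2 regions with a score of 1.67 on the base side and 1.23 on the tip side. The shared stretches were 3593 bp (7779457 to 7783049) and 4729 bp (7783484 to 7788212). The combined list gave them scores of 1.38 and 1.10. The base-side value of 1.67 was the highest score of replicate 2 on the interior.

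The second longest shared stretch, 7997 bp from 26900055 to 26908051, straddled the tip border of the interior. Its scores were 1.26 in replicate 1, 0.938 in replicate 2 and 0.960 in the combined list. The combined region, 26899886 to 26909429, had its midpoint at 26904657.5 and was the last member inside the border. The next one out, 26911268 to 26913460, had a score of 0.676. At the base border the first member inside, 2002749 to 2003776, had a score of 1.28, and the last outside, 1997859 to 2000691, had 0.477.

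The other 5 had lower or less even scores. Stretch 11067437 to 11072128 (4692 bp) scored 0.938 in replicate 1 and 0.621 in replicate 2, and 13442909 to 13446885 (3977 bp) scored 0.833 and 0.601. At 19880322 to 19883690 (3369 bp) the order was the opposite, with 0.855 in replicate 1 and 1.14 in replicate 2. Stretch 22558246 to 22561493 (3248 bp) scored 0.642 and 0.670. Stretch 17121527 to 17124621 (3095 bp) scored 1.47 and 0.917. Of the 10, then, 3 scored higher in replicate 2, counting the base-side part of the 7.78 Mb site.

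**Figure D3:**
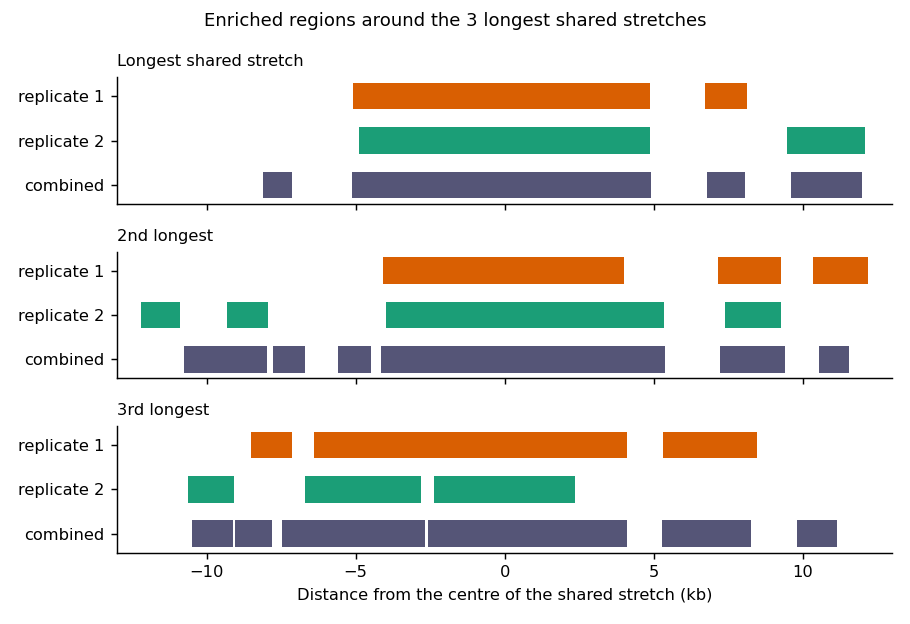
Regions of the 3 lists (bars) around the 3 longest shared stretches of the 3R interior, by distance in kb from the centre of each stretch. The longest, 9758 bp, has nearly the same ends in every list, and in the third the single 10487 bp region of replicate 1 is 2 regions in replicate 2.

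After that of 8300001, the windows of 100 kb with most shared bases were 11000001 to 11100000 at 10.8%, 21800001 to 21900000 at 10.0%, 20900001 to 21000000 at 9.57% and 19600001 to 19700000 at 9.26%. In the first of these, replicate 1 covered 19.2% and replicate 2 covered 20.6%, with 10 regions in each. In the window of 21800001 they covered 18.2% and 23.5%, with 11 regions in each. In contrast to the window of 8300001, where 4 regions per list made up the coverage, these windows held more and shorter calls.

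Scores of overlapping pairs were only loosely related. Over the 511 pairs the Spearman coefficient was 0.21 and the Pearson coefficient 0.43, and over the 471 pairs with both scores under 1 they were 0.14 and 0.18. Pairs are not independent, since a long region can enter several. Replicate 1 had the higher score in 407 of 511 pairs, with a median difference of 0.115. The scales of the lists may be offset, as the constants described further on differ, at 0.166 in replicate 1 and 0.527 in replicate 2. These constants are fractional parts only, so the direction of any offset is unknown. The scores were not put on a common scale.

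On the interior 36 regions of replicate 1 scored 1 or more, with a median length of 2274 bp against 1651 bp for all its regions there, and 25 of them measured 2001 to 2600 bp. Of these 36, 34 overlapped replicate 2 (94.4%, 95% Wilson interval 81.9 to 98.5), above the 44.8% of all replicate 1 regions there. The comparison was not matched for length, and a longer region overlaps others more easily. In replicate 2, however, the partner scored under 0.75 in 25 of the 34, with a median of 0.605. One example is 2732893 to 2735082 (2190 bp), with 1.71 in replicate 1, 0.541 in replicate 2 and 0.723 in the combined list. Replicate 2 had 7 regions scoring 1 or more, with a median length of 3509 bp, and each of the 7 overlapped replicate 1, 6 of them at a partner score of 1 or more. The bound of 1 was chosen after the scores were seen. High calls of replicate 1 thus recurred in replicate 2 as positions in 34 of 36 cases, and mostly with a score under 0.75. The partner median of 0.605 was still above the upper quartile of replicate 2 on the interior, 0.568. Since the scales of the lists may differ, the same bound need not mean the same strength in both.

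**Figure D4:**
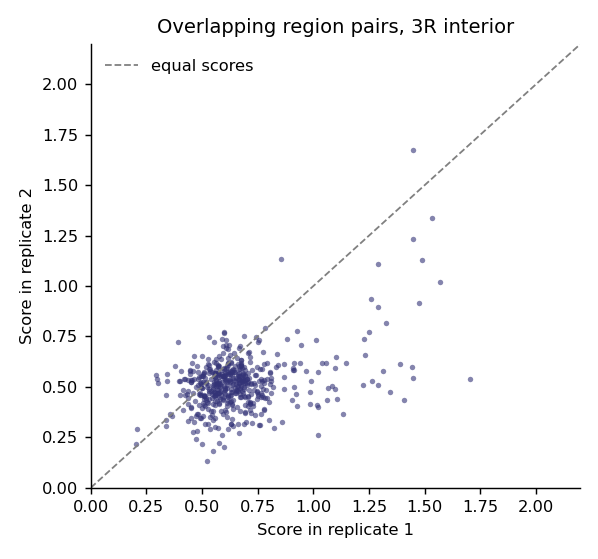
Scores of the 511 overlapping region pairs of the 3R interior, replicate 1 on the x axis and replicate 2 on the y axis (authors' scale), with the line of equal scores dashed. Most points lie below the line, and a row of points with replicate 1 scores of 1 or more stays below 0.75 in replicate 2.

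Each member of the combined list was classed by the replicate lists it overlapped. Of 4573 members, 485 overlapped both (10.6%, 95% Wilson interval 9.75 to 11.5), against 15.6% over the whole combined list. A further 544 overlapped replicate 1 only (11.9%; whole list 12.8%) and 1313 overlapped replicate 2 only (28.7%; whole list 27.1%). The remaining 2231 overlapped neither (48.8%, 47.3 to 50.2), against 44.4% over the whole list. The share overlapping both was 10.1% on the 2L interior, 10.5% on 3L and 10.1% on X, so 3R resembled these arms. The combined list comes from the same libraries and is no independent check. It contained 88.2% of the replicate 1 bases and 92.5% of the replicate 2 bases of the interior, while 52.2% of its own bases lay in at least 1 of the replicate lists.

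Support by the replicates rose with length. Of 670 members of 1001 to 1100 bp, 1 overlapped both lists (0.149%, 95% Wilson interval 0.0264 to 0.841) and 573 overlapped neither (85.5%). Of 1913 members of 1301 to 2000 bp, 6.01% overlapped both. The share was 25.5% among 728 members of 2001 to 3000 bp, 49.0% among 304 of 3001 to 5000 bp and 80.5% among 41 above 5 kb. In the last class 0 of 41 overlapped neither list, which allows a share of up to 7.32% by the limit of 3 counts that a count of 0 allows. A longer region overlaps others more easily, and members shorter than 1301 bp are below the minimum of the replicate lists.

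Members named by both lists gathered around 2 kb. Of the 485, 145 measured 1801 to 2200 bp (29.9%, 95% Wilson interval 26.0 to 34.1), against 588 of the 4088 others (14.4%, 13.3 to 15.5). Median scores were higher at 2001 to 2200 bp than at 1801 to 2000 bp in every class of support. The median of members in both lists was 0.319 at 1601 to 1800 bp, 0.353 at 1801 to 2000 bp, 0.433 at 2001 to 2200 bp and 0.452 at 2201 to 2400 bp. From 1801 to 2000 bp to the next bin the median went from 0.351 to 0.399 for members in replicate 1 only, from 0.380 to 0.413 in replicate 2 only and from 0.370 to 0.401 in neither. Over all lengths, members in both lists had a median score of 0.424 and those in neither 0.371, a difference of 0.0531. By classes of equal size in length it was 0.0636, 0.0381, −0.00690 and 0.0566 from short to long. The first of those classes held 1 and the second 3 members in both lists. The only class with a negative difference was that of 1507 to 1976 bp.

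**Figure D5:**
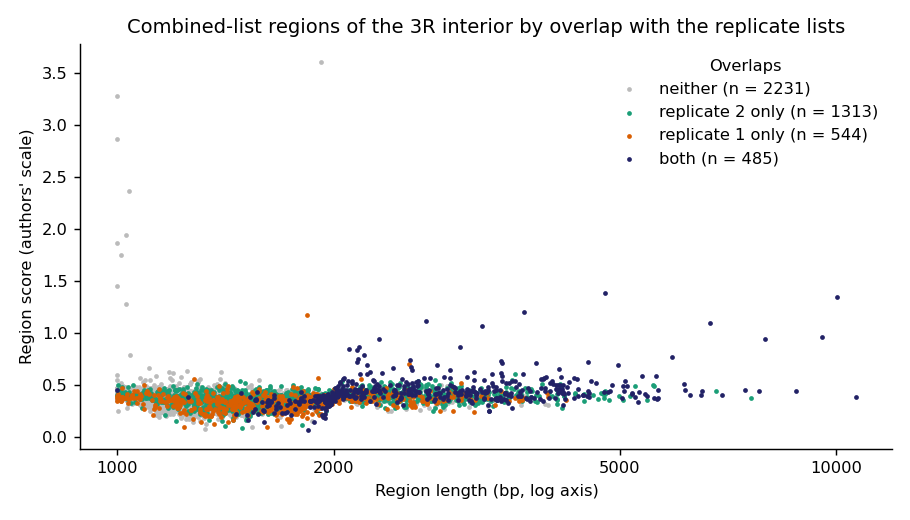
Score (authors' scale) against length (bp, log axis) of the 4573 combined-list members of the 3R interior, coloured by the replicate lists they overlap. Members in both lists gather near 2000 bp and above, and the members with the highest scores are mostly grey points near the minimum length that overlap neither list.

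Among the members of the combined list with the very highest scores, most overlapped neither replicate list. Of the 10 members with the highest scores, 8 overlapped neither replicate list and 7 were shorter than 1100 bp, 4 of them at the minimum of 1001 bp. The top member, 3869927 to 3871847 (1921 bp), scored 3.60. It was followed by 20036937 to 20037937 (1001 bp) at 3.28, 8324328 to 8325328 (1001 bp) at 2.86, 13401055 to 13402095 (1041 bp) at 2.37 and 21666640 to 21667670 (1031 bp) at 1.94. The one at 8324328 lies just outside the longest shared stretch, on its base side. The remaining 3 of the 8 were 12587221 to 12588221 at 1.86, 20032924 to 20033937 at 1.75 and 4736848 to 4737848 at 1.45. The other two, 7778387 to 7783156 at 1.38 and 8327333 to 8337364 at 1.35, were in both lists and belong to the leading shared sites. Of the 50 highest-scoring members, 33 overlapped both lists and 15 neither. By classes of equal size in score, 22.8% of the highest class overlapped both lists and 4.45% of the lowest.

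The scale of the scores is not stated, and their arithmetic was examined. In each list some scores differed from one another by the base-2 logarithm of a ratio of small whole numbers, as a log2 ratio plus a constant of the list would. The most frequent fractional part was 0.278 in the combined list, 0.166 in replicate 1 and 0.527 in replicate 2, and it was taken as the zero. Relative to it the 8 scores equal ratios, in lowest terms, of 10 to 1, 8 to 1, 6 to 1, 17 to 4, 19 to 6, 3 to 1, 25 to 9 and 9 to 4, each within 2e-06 on the log2 scale. Only the fractional part of the zero is known, so each ratio is fixed only up to a factor that is a power of 2. Counts behind a ratio can also be any multiple of its terms. Of all 4573 members, 269 (5.88%) equalled a ratio of whole numbers up to 32, against 1796 of 21932 (8.19%) over the whole combined list. Such ratios with their tolerance fill 0.0381% of the range of scores. That fraction is no expected rate, because the constant was picked from these same scores. The scores are also not spread evenly, with the middle 50% from 0.333 to 0.413. The 269 had a median length of 1386 bp, against 1514 bp for the other members. Among the 50 highest-scoring members 13 equalled such a ratio. In addition 38.5% of the members had a score equal to that of another member to 9 decimals.

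Low and long members behaved differently from these. The lowest score, 0.0663, belonged to 5699506 to 5701350 (1845 bp), which overlapped both lists at scores of 0.206 and 0.218. Of the 10 lowest, which reach 0.127, 1 overlapped both lists, 6 overlapped 1 list and 3 overlapped neither. Of the 10 longest members, 8 overlapped both lists and 0 overlapped neither. The longest, 5479026 to 5489655 (10630 bp), scored 0.387 and was overlapped in part by 1 region of replicate 1 and 2 of replicate 2. Next came the regions at 8327333 and 26899886 described above, then 5293348 to 5302128 (8781 bp, score 0.449) and 3521571 to 3529520 (7950 bp, score 0.948). The last of these was 1 region of 1.29 in replicate 1 and 3 regions reaching 1.11 in replicate 2. Among the 41 members of 5 kb or more the median score was 0.449, against 0.376 for all members.

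Chains of neighbouring members reached further than single regions. The longest chain with gaps under 2 kb ran from 24531925 to 24575384 (43460 bp) and joined 11 members with scores of 0.278 to 0.465. Replicate 2 regions filled 44.3% of it and replicate 1 regions 6.99%. The chain from 22538283 to 22576713 (38431 bp, 15 members) was filled to 51.3% and 22.1% in the same order. By contrast the chain from 11141666 to 11173252 (31587 bp, 9 members) was filled to 55.6% by replicate 2 and to 33.7% by replicate 1, and 5 of its members overlapped both lists. The one from 19856029 to 19886094 (30066 bp, 9 members) was the only one of the 5 longest with more coverage in replicate 1, 36.4% against 31.5%. The fifth, 26749664 to 26778203 (28540 bp, 11 members), was filled to 38.2% by replicate 2 and to 6.08% by replicate 1. The median score of the members was 0.352 to 0.410 in these 5 chains, against 0.376 for all members. The highest was 0.772, for the member at the shared stretch 19880322 to 19883690.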

How the data were processed

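ChIP DNA of 2 libraries was analysed from deposited region lists, 1 list per library and 1 for the replicate set. The submitters' processing notes list Bowtie 0.12.7, and coordinates are FlyBase release 5, per the file headers. The enrichment score of each region is the authors' value as deposited. Its scale is not named, and the region caller, its threshold, the use of input and the way replicates were combined are not given in the sources used. First and last bases were taken as deposited.

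The midpoint rule picked the members, and covered shares were limited to the interior (the Jaccard index was not). Shared means an overlap of at least 1 bp. Wilson intervals (95%) are for counting error alone. Differences between arms and between sides of the arm were tested by exact sign flips over 2 replicates. Regions named are the 10 longest shared stretches, the 10 highest, lowest and longest combined members, the 5 leading complete windows of 100 kb, the 5 longest empty stretches and chains, and the border members; other sites named were chosen after their values were seen. Members, lists and tests were chosen with earlier results of these data known. Alternatives covered score and length limits, borders, merging of regions under 1 kb apart, overlap of 50% and each replicate alone. Interval arithmetic was tested on simulated data, with 40 of 40 list pairs matching base-by-base counting. The RefSeq table used for names has release 6, and no gene was assigned to a region. Python 3.11.15, NumPy 2.4.6, SciPy 1.17.1, pandas 2.3.3 and Matplotlib 3.10.9 were used.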

Additional observations from a re-analysis of the deposited data

How the results depend on the processing

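Values with 1 replicate left out are the single libraries, which lie within 1 SD of a mean of 2 by construction. The excess of 3R over the mean of 2L, 3L and X stayed positive in 9 of 10 alternatives. It was 1.52 to 1.87 with 1 replicate left out and 0.887 with 2R added after the data were seen. In the longest 50% of each list it fell to 0.488. It turned to −0.702 in the top 50% by score, a limit over the whole list that keeps more regions of X. Under that limit 3R stayed above 2L and 3L in both replicates and lay below X. The tip-side excess stayed positive in all 9, at 1.23 to 3.49 with 1 replicate left out. No exact p in this design can fall below 0.5, so these say nothing about passing a threshold. Coverage was 7.75 to 13.7% with 1 replicate left out, 32.1% in the combined list, 3.76% in the top 50% by score and 5.33% in the longest 50%. The mean share with a partner was 35.8%, 26.9 to 44.8% with 1 replicate left out and 19.1% in the top 50% by score. The Jaccard index and the score difference have no replicate spread, so each alternative is given. The index of 0.150 became 0.0810 in the top 50% by score, 0.123 in the longest 50%, 0.150 with narrower borders, 0.149 with the tip kept and 0.151 after merging. The share of members in both lists became 6.93% under 50% overlap, 4.12% in the top 50% by score, 7.25% in the longest 50% and 16.4% after merging. The score difference of 0.0531 became 0.0526 under 50% overlap, 0.130 in the top 50% by score, 0.126 in the longest 50%, 0.0530 with narrower borders and 0.0512 with the tip kept. Limits by score or length and merging change which regions enter by construction; other causes were not tested. No paired analysis was possible because the groups that share replicate numbers are ChIP and input, and the inputs were not analysed here; differences between arms or sides were taken within each library. Without read depth, a call missing from 1 list cannot be told from one too shallow to make.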
